A study of Homo sapiens with 2 samples.

Results

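CALB1, which encodes the calcium-binding protein calbindin, was examined together with 7 genes that lie near it on chromosome 8 (RIPK2, OSGIN2, NBN, DECR1, LINC00534, TMEM64 and NECAB1) and with TC08001402.hg.1, a transcript cluster that has no gene symbol in the platform annotation and carries the identifier next to that of CALB1. A transcript cluster is the group of probes that the array summarizes as 1 transcript. Each of the 8 genes was measured by 1 cluster, so the locus comprised 9 of the 67524 clusters on the array. The locus was chosen by its measured values: CALB1, LINC00534 and TC08001402.hg.1 had already been seen to differ strongly between the lines, and the other genes were taken as their neighbors. The differences of CALB1, LINC00534 and TC08001402.hg.1 are therefore a description, and their size is not a finding of its own.

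Transcript levels were compared between a cisplatin-sensitive line of serous ovarian cancer, OAW42, and the resistant line OAW42-R, which was derived by repeated exposure of OAW42 to rising cisplatin concentrations with recovery in between. Both lines were grown in the same medium without drug, and RNA of each was hybridized to 1 whole-transcript array. With 1 array per line there were no replicates, no error could be measured and no test was possible, and the state of 1 culture cannot be told apart from the line itself. Values are log2 RMA signals, and differences, also log2, are the OAW42-R signal less the OAW42 signal, so that 1 is a 2-fold difference. OAW42-R had a median signal over all clusters of 6.34 and OAW42 one of 6.30, and this median served as a floor: a gene was above it when its brighter array reached the median of that array. In 15910 genes above the floor the central 95% of differences ran from -0.44 to 0.53, which is a spread between genes and not an error. Of 18 epithelial and ovarian carcinoma markers 17 were above the floor. Some were bright on both arrays, with PAX8 at 11.67 in OAW42-R and 11.40 in OAW42 and KRT18 at 10.80 and 10.77. Others lay close to the floor, with WT1 at 6.75 and 6.83, MUC16 at 6.89 and 6.74 and WFDC2 at 6.91 and 6.96. CDH6 was below it (4.68 in both). A signal above the floor thus does not by itself show that a gene was expressed. Of 16 measured markers of fibroblasts, leukocytes and endothelial cells 9 were above the floor too. Among them were CD68 (10.47 in OAW42-R and 10.56 in OAW42), COL1A1 (7.83 and 7.91) and VWF (6.77 and 6.82). The 7 below the floor included PTPRC (4.21 and 4.25), PECAM1 (4.92 and 4.78) and DCN (4.05 and 3.97).

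Calbindin is a cytosolic protein of the EF-hand family, in which a helix-loop-helix fold binds calcium. It buffers calcium in many neurons and in the distal tubule of the kidney, where it carries calcium across the cell and is known as a vitamin D-responsive gene. NBN encodes nibrin of the MRE11-RAD50-NBN complex, which senses DNA double-strand breaks. RIPK2 is the kinase that relays signals from the bacterial sensors NOD1 and NOD2. DECR1 is a mitochondrial reductase needed for the oxidation of polyunsaturated fatty acids, and NECAB1 is, like calbindin, an EF-hand protein known from neurons. No nucleotide sequence of the locus is shown here.

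CALB1 reached a signal of 11.80 in OAW42-R against 8.32 in OAW42, a difference of 3.48 (11.2-fold). Both signals were above the median of their array, at the 99.3th percentile in OAW42-R and the 82.5th in OAW42. A percentile is not a detection call, so whether CALB1 RNA was present in the sensitive line was not settled. TC08001402.hg.1 reached 11.30 in OAW42-R against 5.73 in OAW42, a difference of 5.57 (47.5-fold), the largest in size of all 67524 clusters. In OAW42 its distance from the array's median was -0.57, so its fold compares a bright signal with one near background and its size is uncertain. By positive difference CALB1 ranked 5 among all clusters and 1 among genes above the floor. The next gene in that order had a difference of 3.33, and with no replicates the order of genes so close cannot be settled.

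LINC00534, a long non-coding RNA gene and the next named gene after CALB1 in RefSeq order, reached 7.64 in OAW42-R against 5.09 in OAW42, a difference of 2.55 (5.86-fold). The distance of its OAW42 signal from the array's median was -1.21, at the 28.1th percentile, so LINC00534 passed the floor through OAW42-R alone. RNA5SP273, a pseudogene of the small ribosomal RNA of the large subunit that lies between LINC00534 and TMEM64, was not on the list of neighbors but also differed, with 7.23 in OAW42-R and 6.19 in OAW42 (1.04). It passed the floor through OAW42-R alone too.

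**Figure D1:**
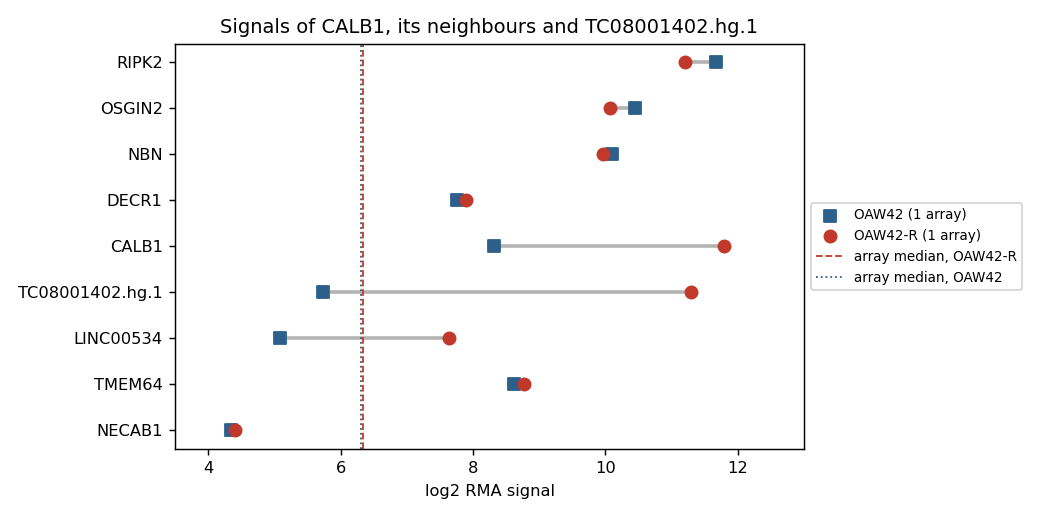
Log2 RMA signal (x axis) of each listed gene and of TC08001402.hg.1 in OAW42 (squares) and OAW42-R (circles), 1 array each, in order along the chromosome as far as known. CALB1, TC08001402.hg.1 and LINC00534 were separated by 3.48, 5.57 and 2.55, and the other genes by at most 0.47 in size; dashed and dotted lines give the array medians of 6.34 and 6.30.

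The 6 other genes, with NECAB1 below the floor among them, were within 1.5-fold in the lines. They differed by between -0.47 and 0.15, with a median of -0.04, beside a median of 0.00 over all genes above the floor. RIPK2 gave 11.21 in OAW42-R and 11.68 in OAW42 (-0.47), so the signal of this kinase was 1.39-fold higher in the sensitive line and its difference fell just outside the central 95% of genes. OSGIN2, a member of the oxidative stress-induced growth inhibitor family, gave 10.07 and 10.45 (-0.38, 1.30-fold higher in OAW42). NBN gave 9.96 and 10.10 (-0.14). These genes lie in this order on 1 side of CALB1, and all 3 were lower in OAW42-R.

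DECR1, the gene directly before CALB1, gave 7.89 in OAW42-R and 7.76 in OAW42 (0.13). On the far side of LINC00534, TMEM64 gave 8.77 and 8.62 (0.15); its product is a membrane protein that regulates calcium signaling in mouse osteoclasts. NECAB1 gave 4.40 and 4.34 (0.06), at the 16.4th and 15.9th percentiles of the arrays, and was the single listed gene below the floor, so 7 of the 8 genes were above it. NECAB1 was therefore near background in both lines, and a difference between them was not measurable.

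Of the 9 clusters 3 were at least 2-fold higher in OAW42-R, beside 0.486% of all clusters on the array, and none was at least 2-fold lower. This count follows from how the locus was chosen and nothing is read from it. The 6 other clusters were within 1.5-fold.

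**Figure D2:**
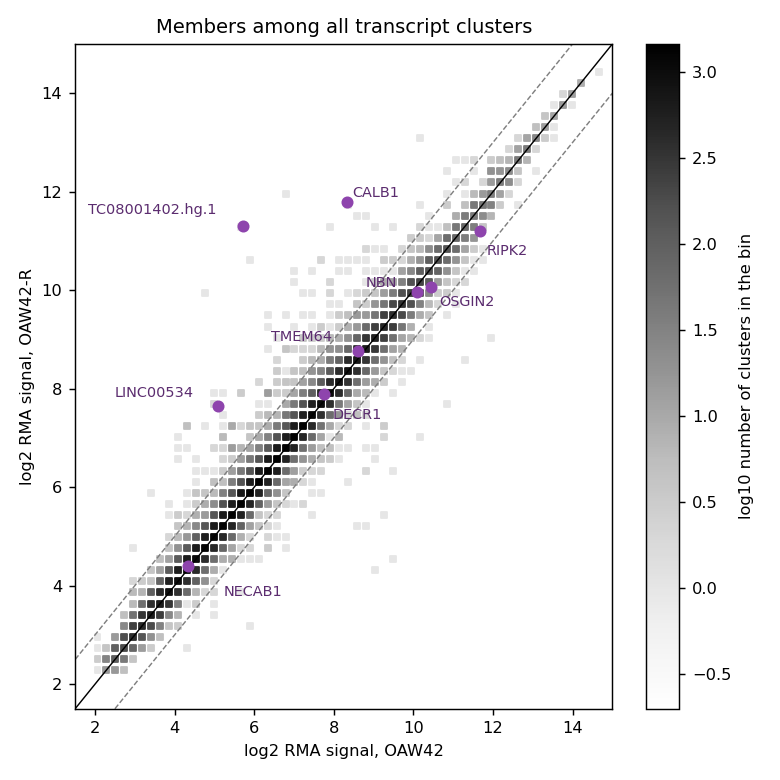
Log2 RMA signal in OAW42 (x axis) and OAW42-R (y axis) of all 67524 clusters, counted in bins (gray scale, log10 of the number of clusters), with the 9 clusters of the locus as purple points. The solid line marks equal signals and the dashed lines 2-fold differences; CALB1, TC08001402.hg.1 and LINC00534 lie above the upper dashed line and the 6 other points near the solid line.

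The next question was how sharply the difference was bounded. Cluster identifiers on chromosome 8 are numbered in 2 series that each run along the chromosome. In the first series 97.0% of steps from one named cluster to the next were ascending in RefSeq position, and in the second 97.8%. On the 21 other autosomes, where strands were at hand, 99.4% of clusters in the first series were on the plus strand and 99.3% of those in the second were on the minus strand. Numbering thus gave the order of unnamed clusters, though not their exact position, and placed TC08001402.hg.1 after CALB1 and before TMEM64 in the series of the minus strand.

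In that series NBN (-0.14), CALB1 (3.48) and TC08001402.hg.1 (5.57) followed each other. The next clusters, TC08001403.hg.1 with 5.71 in OAW42-R and 5.69 in OAW42 (0.02) and TC08001404.hg.1 with 5.20 and 5.22 (-0.02), both lay below the array medians, and TMEM64 (0.15) came after them. In the first series DECR1 (0.13) was followed by LINC00534 (2.55), RNA5SP273 (1.04), the unnamed TC08000550.hg.1 with 5.04 in OAW42-R and 4.26 in OAW42 (0.78), and NECAB1 (0.06). The differing clusters thus formed 1 stretch in each series, of 2 clusters around CALB1 and of 3 clusters from LINC00534 on. In both series the nearest named gene on either side was within 1.5-fold, but NECAB1 was below the floor in both lines. The first series therefore does not show where the difference ends on the side of NECAB1. TC08000550.hg.1 lay below the median of both arrays.

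Within 15 numbers of a member there were 63 other clusters, 21 of them with 1 gene symbol. Their median difference was 0.05, over a range of -0.35 to 1.04. RNA5SP273 alone was at least 2-fold higher, beside 0.486% of all clusters on the array. RNA5SP273 and TC08000550.hg.1 were at least 1.5-fold higher and none was 1.5-fold lower. Many of the 63 lay below the array medians, where a difference was not measurable, so nothing is read from these counts. In the second series the 32 other clusters ran from -0.20 to 0.43. Over the whole array there were 64984 pairs of clusters with consecutive numbers, and in 47 of them both clusters were at least 2-fold higher in OAW42-R. Ordered by the smaller difference of a pair, CALB1 with TC08001402.hg.1 (3.48) came second, after an unnamed pair numbered on chromosome 10 (4.76). Both clusters were chosen for their differences, so nothing is read from this rank. Many of the 47 pairs also share clusters, in a run of unnamed clusters numbered on chromosome 15 with repeated values. Whether CALB1 and TC08001402.hg.1 are parts of 1 transcript was not tested, since the files give neither probe positions nor sequences.

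**Figure D3:**
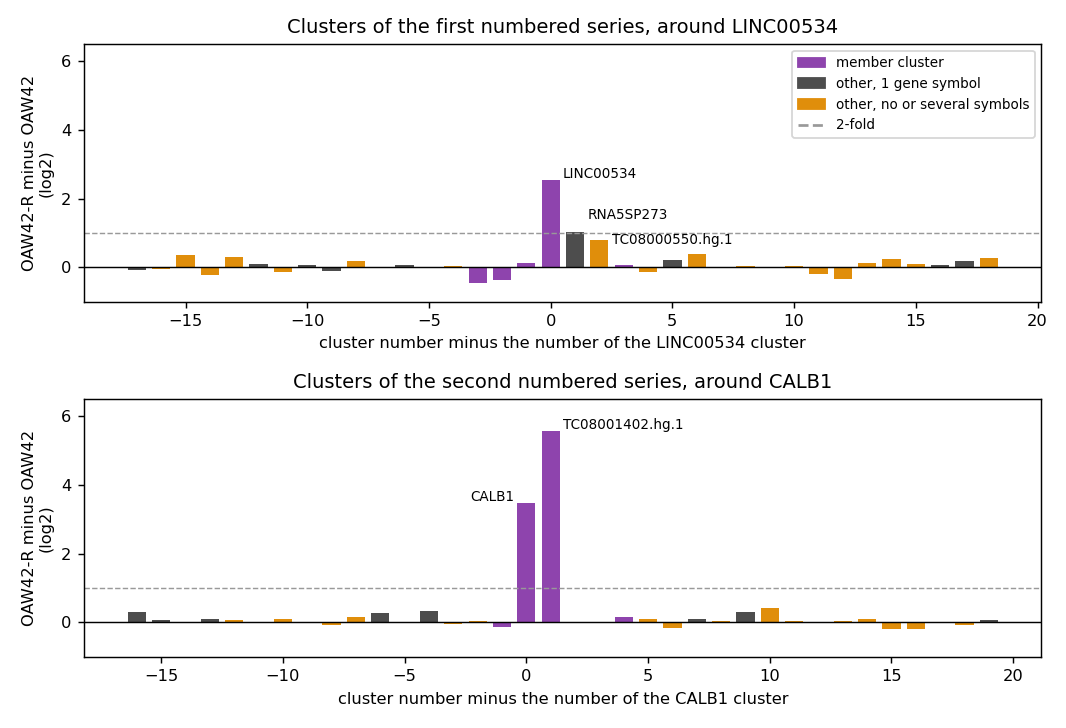
Difference OAW42-R minus OAW42 (log2, y axis) of clusters by their identifier number, counted from LINC00534 in the first numbered series (top) and from CALB1 in the second (bottom); purple bars are members, dark bars other clusters with 1 gene symbol and orange bars clusters with none or several. CALB1 (3.48) and TC08001402.hg.1 (5.57) stand beside clusters that differed by -0.14 and 0.02, and LINC00534 (2.55) is followed by RNA5SP273 (1.04) and TC08000550.hg.1 (0.78).

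The wider surroundings were then described with the 20 named genes on each side of the locus. Of these 40 genes 21 were above the floor, with a median difference of 0.09, 14 higher and 7 lower in OAW42-R. For the 516 genes above the floor elsewhere on chromosome 8 the median was 0.00, with 248 higher and 250 lower. At least 2-fold higher was 1 of the 21, beside 0.541% of all genes above the floor, and none was at least 2-fold lower, beside 0.333%. That gene, RALYL, was the farthest of the 20 genes on the side of RIPK2. It gave 8.06 in OAW42-R and 6.20 in OAW42 (1.86), a signal in OAW42 below the array's median. The next cluster by number, the unnamed TC08000527.hg.1, also differed, with 6.75 in OAW42-R and 5.26 in OAW42 (1.49). Its OAW42 signal lay below the array's median too. Between RALYL and CALB1 there were 23 named genes with a cluster, and all of them differed by less than 1.5-fold, from -0.47 to 0.34. Many of them were below the floor, such as CNBD1 (3.27 and 3.20) and MMP16 (4.34 and 4.34). For these a difference was not measurable. Of the 20 flanking genes on this side 9 were above the floor, RALYL among them.

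The other flanking genes above the floor were within 1.5-fold. On the side of RIPK2, RBIS differed by 0.34, the pseudogene REXO1L1P by 0.30 (uncertain, since it has near-identical copies) and CPNE3 by -0.12. On the side of NECAB1, GEM, a small GTP-binding protein that inhibits voltage-gated calcium channels, had the lowest difference with 7.87 in OAW42-R and 8.28 in OAW42 (-0.41), and PDP1 differed by -0.14. The 12 genes above the floor on that side, all but RBM12B-AS1, PDP1, GEM and VIRMA of them higher in OAW42-R, had a median of 0.10 and the 9 on the side of RIPK2 one of 0.08.

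**Figure D4:**
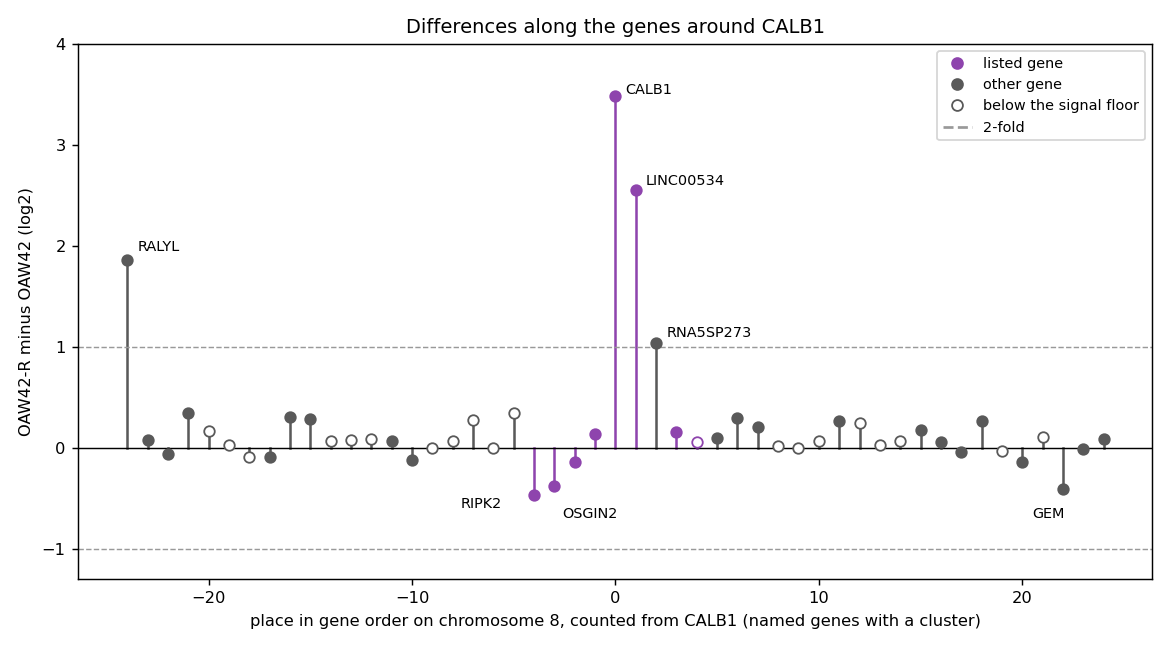
Difference OAW42-R minus OAW42 (log2, y axis) of named genes in RefSeq order on chromosome 8, counted from CALB1 (x axis); purple points are the listed genes, gray points other genes, open points genes below the floor, and dashed lines 2-fold differences. CALB1 (3.48), LINC00534 (2.55) and RNA5SP273 (1.04) are next to each other, and RALYL (1.86) is at the far left. Unnamed clusters are not shown.

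On the whole of chromosome 8, 10 of 545 genes above the floor were at least 2-fold higher in OAW42-R, beside 0.541% of all genes above the floor, and 2 were at least 2-fold lower, beside 0.333%. The 10 include CALB1 and LINC00534, which were chosen for their values, and RNA5SP273, which lies among the listed genes. LINC00534, RNA5SP273 and RALYL passed the floor through OAW42-R alone, so nothing is read from this count. CALB1 and LINC00534 had the highest differences, followed by the secreted hormone STC1 (2.20) and the palmitoyltransferase ZDHHC2 (2.16). Lowest were the carbonic anhydrase-related gene CA8 (-1.07) and the ribosomal pseudogene RPS20P22 (-1.06).

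Calbindin works among other calcium-binding proteins, so 55 genes of EF-hand buffers and sensors were described next. Of these 49 had a cluster of their own and 35 were above the floor, with a median difference of 0.03, or 0.03 over 34 genes without CALB1. At least 1.5-fold higher were 3 genes, beside 2.02% of all genes above the floor, and none was 1.5-fold lower, beside 1.31%. The 3 include CALB1, which was chosen for its difference, so nothing is read from this count. The others were NCALD, a neuronal calcium sensor gene also on chromosome 8, with 8.99 in OAW42-R and 7.32 in OAW42 (1.67), and GUCA1C, an activator of retinal guanylate cyclase, with 6.68 and 5.96 (0.72). The GUCA1C signal in OAW42 lay below the array's median, so GUCA1C passed the floor through OAW42-R alone.

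Of the 49 EF-hand genes with a cluster 14 were below the floor, and 4 of these are named here for their role. CALB2, which encodes calretinin, gave 5.92 in OAW42-R and 5.91 in OAW42, parvalbumin (PVALB) 6.12 and 6.06, secretagogin (SCGN) 4.83 and 4.93, and S100G, the small intestinal calbindin, 3.09 and 3.27. PVALB lay only a little below the floor. CALB1, chosen for its difference, was above the floor, but nothing is read from this contrast. Other EF-hand genes were above it too, such as NCS1 with 10.11 in OAW42-R and 9.64 in OAW42. Among relatives of the other members, 8 were above the floor and differed by between -0.16 and 0.12, with RIPK4 at -0.16, DECR2 at 0.12 and TMEM41B at 0.09.

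Pumps, channels and exchangers move the calcium that calbindin binds. Of 28 such genes above the floor the median difference was -0.03. It turned to 0.14 with the floor at the 75th percentile, which keeps fewer genes. At least 1.5-fold higher were 2 of the 28, beside 2.02% of all genes above the floor. SLC8A1, the sodium-calcium exchanger, gave 9.22 in OAW42-R and 7.53 in OAW42 (1.69), and ATP2B2, a calcium pump of the plasma membrane, gave 8.58 and 7.71 (0.87). None was 1.5-fold lower, beside 1.31%, and CACNA1H, a voltage-gated calcium channel, came nearest at -0.51.

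Genes of vitamin D metabolism and response had a median of 0.00 over 13 genes above the floor. The vitamin D receptor VDR gave 7.49 in OAW42-R and 7.40 in OAW42 (0.09). CYP24A1, the hydroxylase that degrades vitamin D and the classical target of the receptor, was below the floor in both lines (5.02 and 4.99), and the epithelial calcium channel TRPV6 gave 6.64 in both. No gene of the list was 1.5-fold higher, beside 2.02% of all genes above the floor, and 2 were 1.5-fold lower, beside 1.31%. CYP27A1, a sterol hydroxylase that also acts on vitamin D, gave 7.44 in OAW42-R and 8.51 in OAW42 (-1.07), and the secreted phosphoprotein SPP1 11.82 and 12.61 (-0.79).

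Cell types known for calbindin were described by their markers. Of 23 measured distal nephron markers 16 were above the floor, and 2 of these were at least 2-fold higher, beside 0.541% of all genes above the floor, and none was 1.5-fold lower, beside 1.31%. The list was chosen with earlier results of these data known, so nothing is read from this count. The median of the 16 was 0.09 but moved to 0.41 when the floor was set at the 75th percentile. That floor keeps fewer genes, with both genes past 2-fold among them. SLC12A3, the sodium-chloride cotransporter of the distal convoluted tubule, gave 10.52 in OAW42-R and 8.18 in OAW42 (2.34), and SLC8A1 is named above. The other 14 above the floor were within 1.5-fold, such as CLDN16, a tight junction protein (12.23 and 12.19), and the kinases WNK1 (10.66 and 10.55) and STK39 (9.30 and 8.83). The 7 below the floor in both lines included the magnesium channel TRPM6 (4.91 and 4.87), the potassium channel KCNJ10 (6.18 and 6.04) and PVALB. Of 19 measured markers of inhibitory neurons 12 were above the floor, 3 of them higher and 9 lower. Of all 15910 genes above the floor 7417 were higher and 7908 lower. The median was -0.08 and moved to -0.24 when the floor was set at the 75th percentile, which keeps fewer genes. Past 1.5-fold was 1 in each direction, beside 2.02% of all genes above the floor higher and 1.31% lower. RELN, which encodes the secreted protein reelin, gave 10.05 in OAW42-R and 6.94 in OAW42 (3.11), and NOS1, the neuronal nitric oxide synthase, 9.89 and 10.56 (-0.67). GAD1 (5.88 and 5.89) and GAD2 (4.81 and 4.81), the enzymes that make GABA and define these neurons, were among the 7 below the floor.

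**Figure D5:**
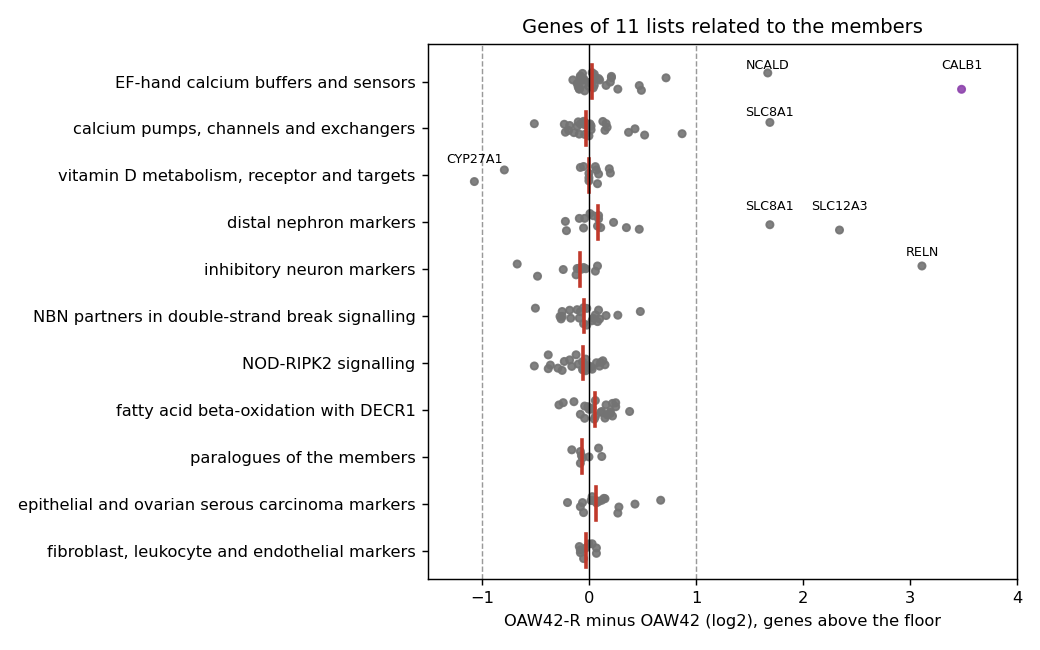
Difference OAW42-R minus OAW42 (log2, x axis) of each gene above the floor in 11 lists (y axis); purple marks CALB1, red bars the median of a list and dashed lines 2-fold differences. List medians ran between -0.08 and 0.09, and the named genes are those past 2-fold.

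The partners of the neighboring genes were described in the same way. Of 23 genes that act with NBN in double-strand break signaling, all above the floor, none was 1.5-fold higher or lower. Over all genes above the floor 2.02% were 1.5-fold higher and 1.31% lower. A list this short can hold none at such shares, so nothing is read from this count. The median of the 23 was -0.05. MRE11 and RAD50, which form a complex with NBN, gave 8.61 in OAW42-R and 8.63 in OAW42 (-0.02) and 10.61 and 10.45 (0.16), and the kinase ATM, which the complex activates, gave 8.64 and 8.56 (0.08). The differences of largest size were those of ABRAXAS1 (-0.50) and BABAM2 (0.48), subunits of the BRCA1-A complex. They were followed by UIMC1 (0.27), which binds ubiquitin chains at breaks and brings that complex and BRCA1 there, and BARD1 (-0.27), the partner of BRCA1.

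In NOD-RIPK2 signaling 17 of 26 genes above the floor were lower in OAW42-R and 7 higher, with a median of -0.06. Of all 15910 genes above the floor 7908 were lower and 7417 higher. None of the 26 was past 1.5-fold, beside 2.02% of all genes above the floor higher and 1.31% lower. Nothing is read from these counts. The sensor NOD1 gave 6.98 in both lines and NOD2 6.36 in both. CARD6, which has a caspase recruitment domain like RIPK2, differed by -0.51, the ubiquitin-editing enzyme TNFAIP3 by -0.38 and the ubiquitin ligase ITCH by -0.38. Of 25 genes of fatty acid beta-oxidation above the floor, 17 were higher and 7 lower, with a median of 0.06. None of them was past 1.5-fold, beside the same shares over all genes, and nothing is read from these counts either. The carnitine transferase CPT2 differed by 0.38, the racemase AMACR by -0.28 and the isomerase ECI1 and the dehydrogenase HADH by 0.25 each.

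Of 17 epithelial and ovarian carcinoma markers above the floor, EPCAM alone passed 1.5-fold (10.70 in OAW42-R and 10.03 in OAW42, 0.67). Over all genes above the floor 2.02% were 1.5-fold higher and 1.31% lower, so nothing is read from this count. The list median was 0.07. Markers of fibroblasts, leukocytes and endothelial cells had a median of -0.03 over 9 genes above the floor and ran from -0.09 to 0.07. The genes of largest size among these were CD68 (-0.09), COL1A1 (-0.08) and CD3E (-0.08).

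The genes whose pair of signals lay nearest to that of CALB1, by Euclidean distance over the 2 arrays, were UCA1 (11.62 in OAW42-R and 8.51 in OAW42, distance 0.26), KRT25 (11.59 and 8.84, distance 0.56) and DNAH5 (11.18 and 9.13, distance 1.02). Signals of different clusters come from different probes, so a short distance says only that these genes shared a bright signal in OAW42-R and a dimmer one in OAW42.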

How the data were processed

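Total RNA of OAW42 and OAW42-R, 1 sample per line, was hybridized to Affymetrix human transcriptome arrays. The file deposited by the authors holds 1 log2 signal per transcript cluster and array, normalized by RMA over their set of samples. For its version, the genome build and the annotation release, nothing is given in the sources used here. RMA makes arrays alike in distribution and compresses large folds near background. Precision is limited by how few arrays there were.

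Clusters were named with the platform annotation: 23780 had 1 symbol, 1541 several and 42203 none. Symbols were updated with RefSeq genes of GRCh38.p14, used for names and gene order only. Genes of chromosome Y and XIST, 62 in all, were left out of the gene tables. A gene with several clusters was its brightest cluster. The floor was the 50th percentile of all clusters on the brighter array, and differences were counted at 2-fold and 1.5-fold without a test.

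The members and the 11 gene lists were chosen with earlier results of these data known. Named were all members, flanking genes past 1.5-fold and the 3 largest differences in each direction, list genes past 1.5-fold or else the 3 of largest size, and the 3 genes nearest to CALB1. RNA5SP273, TC08000550.hg.1, TC08000527.hg.1, other genes of chromosome 8, and genes of the lists named for their role were chosen after their values were seen. Alternatives were 3 rescalings, 2 other rules for genes with several clusters, other floors, thresholds and flank widths. Steps were checked on simulated data. Scripts ran in Python 3.11.15 with pandas 2.3.3, numpy 2.4.6, statsmodels 0.14.6 and matplotlib 3.10.9.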

Additional observations from a re-analysis of the deposited data

How the results depend on the processing

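Leaving out a replicate could not be tried, since each line had 1 array. No paired analysis was possible because each line had 1 sample and no test was run. The number of member clusters past 2-fold was 3 under every rescaling and also at the 1.5-fold and 4-fold thresholds. Over the alternatives the difference of CALB1 lay between 3.46 and 3.48, that of TC08001402.hg.1 between 5.55 and 5.56 and that of LINC00534 between 2.51 and 2.53, and no other listed gene changed sign under a rescaling. Of 238 alternative values 225 moved by less than 0.1 on the log2 scale or, for counts, by no more than 1.5 times, and 13 moved further. With 10 flanking genes on each side 0 were past 2-fold and with 40 on each side 2 were. With the floor at the 75th percentile, which keeps fewer genes, list medians were 0.14 for calcium pumps and channels, 0.41 for distal nephron markers and -0.24 for inhibitory neuron markers. At 4-fold the counts were 1 for EF-hand genes, 0 for calcium pumps and channels, 0 for vitamin D genes and 1 for distal nephron markers. At 1.5-fold they were 2 for calcium pumps and channels, 2 for vitamin D genes, 2 for inhibitory neuron markers and 1 for epithelial markers. TC08001402.hg.1 and LINC00534 were below the array's median in OAW42, which limits how far their folds can be trusted.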

Other observations

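Clusters with identifiers of chromosome 8 numbered 2607. Of these, 22 were higher in OAW42-R by 2-fold or more, beside 0.486% of all clusters on the array, and 3 were lower by as much. The 22 include CALB1, LINC00534 and TC08001402.hg.1, which were chosen for their values, so nothing is read from this count. Past 2-fold, 12 had no gene symbol. The largest of these after TC08001402.hg.1 was TC08002413.hg.1, at 13.17 in OAW42-R against 10.18 in OAW42 (a log2 difference of 2.99). It is numbered after both ordered series, so its place relative to CALB1 was not determined here.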
